A study of Oryza sativa Japonica Group with 17 samples.

Results

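Roots of rice lacking the cytosolic glutamine synthetase gene OsGS1;2 were compared with roots of plants of another line, NC2373, from which the insertion had segregated away. The members are 6 of the 17 arrays of the series, 3 titled gs1;2 and 3 titled NC2373 no insertion, and every probe set outside the Affymetrix controls was tested (57258 of 57381). The gs1;2 roots came from homozygous Osgs1;2 seed and are called the mutant here. The NC2373 null roots came from plants without an insertion among the offspring of a plant heterozygous for NC2373, a line carrying a disrupted OsGS1;1, the gene of a second cytosolic isoform. Wild type roots (3 arrays) served as the other control. All were cultivar Nipponbare, grown hydroponically for 18 days in a greenhouse with 1 mM ammonium as the nitrogen source, and total RNA of whole roots was hybridised to the rice genome array. The labels number the mutant arrays 354, 355 and 356, the NC2373 null arrays 152, 153 and 154 and the wild type arrays 627, 628 and 629, and do not say whether a sample pooled several plants. NC2373 null plants did not segregate from the mutant's own line, so loss of OsGS1;2 and the background of the line cannot be told apart in this comparison. The 3 arrays of a group are biological replicates per the labels.

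Rice roots in flooded soil take up nitrogen mainly as ammonium. Glutamine synthetase fixes it onto glutamate to give glutamine, and glutamate synthase (GOGAT) returns glutamate from glutamine and 2-oxoglutarate, a carbon skeleton from respired sugar. OsGS1;2 is the isoform known for the primary assimilation of ammonium in the surface cell layers of rice roots, and glutamine itself is a signal that tells the root its nitrogen status.

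OsGS1;2 (LOC4332108) was nearly lost in the mutant, which checks the labels. Its signal, the deposited log2 value of the robust multi-array average (RMA), was 7.21, 6.97 and 6.86 in mutant roots, against 12.70, 12.88 and 12.75 in NC2373 null and 12.63, 12.39 and 12.31 in wild type. The groups lay far apart, and the arrays do not say how much of the remaining signal is transcript, since the table gives no detection calls. The mutant minus NC2373 null difference was -5.76 (SE 0.14, adjusted p = 6.65e-12) and the mutant minus wild type difference -5.43 (SE 0.14, adjusted p = 8.04e-12), all differences here being log2 differences of group means from limma with Benjamini-Hochberg adjustment over the 57258 probe sets. NC2373 null and wild type did not differ past the threshold for it, at 0.34 (SE 0.14, adjusted p = 0.324).

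Against NC2373 null, 5849 probe sets (10.2%) passed an adjusted p of 0.05, 2441 higher in the mutant (4.26%) and 3408 lower (5.95%), and 1079 of them differed at least 2-fold. The 3 mutant and 3 NC2373 null arrays did not overlap at 18386 probe sets (32.1%), among them 5779 of those called. Lack of overlap with NC2373 null therefore adds little to a call. A member is named as called, or as having risen or fallen, only when its adjusted p was under 0.05. With only the 31945 probe sets of mean signal at least log2 5, 6529 were called, a larger share. Gene lists use the brightest probe set of each gene, so the share over all probe sets is a low background for them. No list was tested against either share. A list's share above 10.2% is therefore not by itself a result about that list. Against wild type 2310 probe sets (4.03%) were called, 954 higher (1.67%) and 1356 lower (2.37%). These splits depended on the scaling. Quantile normalization on top gave 2849 higher and 2966 lower against NC2373 null, and 1123 higher and 1097 lower against wild type. With each array's median subtracted they were 1991 higher and 4049 lower against NC2373 null, and 850 higher and 1585 lower against wild type. Against the mean of both controls 5577 (9.74%) were called. The controls themselves differed at 523 probe sets (0.913%), 245 higher in NC2373 null (0.428%) and 278 lower (0.486%), which is also the test of whether the 2 mutant comparisons differ from each other. These comparisons share arrays, so their values are set side by side and are not counted as independent. The count against NC2373 null was 5518 without mutant array 354 and 5368 without NC2373 null array 153, but 2789 without mutant array 355, 1863 without mutant array 356, 2527 without NC2373 null array 152 and 4163 without NC2373 null array 154. The count against wild type was 1024 and 555 without mutant arrays 355 and 356 and 1137 and 878 without wild type arrays 627 and 628, and the count against both controls 2196 and 1264 without mutant arrays 355 and 356. Between the controls it was 148 without NC2373 null array 152, 118 without wild type array 627 and 1036 without wild type array 629. Over all probe sets the median difference was 0.03, and the median SE was 0.113. Median signal was 5.40 to 5.41 in mutant arrays, against 5.38 in each NC2373 null array and 5.38 to 5.40 in wild type. The difference between 3' and 5' actin control probe sets, a sign of RNA quality, was 2.83 to 3.01 in mutant arrays, against 2.70 to 3.02 in NC2373 null and 2.73 to 2.85 in wild type, so the groups overlapped. Seed storage protein genes, markers of remaining seed tissue, had 1 of 12 members called, RAG2, at 0.24 (adjusted p = 0.0426), and that call ended without any 1 of the 6 arrays.

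Of 9 measured genes of ammonium assimilation 3 fell against NC2373 null (33.3%), OsGS1;2 among them, with a median of -0.46 beside 0.03 for all probe sets, and none was called higher. Genes are called measured here where a probe set could be matched to them by gene name. The list holds neither the glutamate synthase NADH-GOGAT1 nor an asparagine synthetase, so nothing is said of those. The plastid glutamine synthetase OsGS2 measured 8.30, 8.09 and 7.82 in mutant roots, against 9.27, 9.20 and 9.71 in NC2373 null and 8.54, 8.25 and 8.72 in wild type. All 3 mutant arrays lay below all 3 NC2373 null arrays, whereas they overlapped wild type. Its difference was -1.32 (SE 0.26, adjusted p = 0.00639) against NC2373 null and -0.43 (SE 0.26, adjusted p = 0.399) against wild type. Between the controls OsGS2 had 0.89 (adjusted p = 0.128), so a difference between the 2 mutant comparisons was not shown for it. The photosynthesis and chlorophyll genes, markers of green tissue whose levels are given below, were likewise highest in NC2373 null, and their part in the difference of OsGS2 was not tested. OsGDH1, a mitochondrial glutamate dehydrogenase that can release ammonium from glutamate, fell by a similar amount against either control, at -0.55 (SE 0.12, adjusted p = 0.0117) against NC2373 null and -0.52 (SE 0.12, adjusted p = 0.0273) against wild type. The call of OsGDH1 ended without array 356 (adjusted p = 0.0637). Against wild type the call of OsGDH1 ended without array 355, 356 or 629 (adjusted p up to 0.133).

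**Figure D1:**
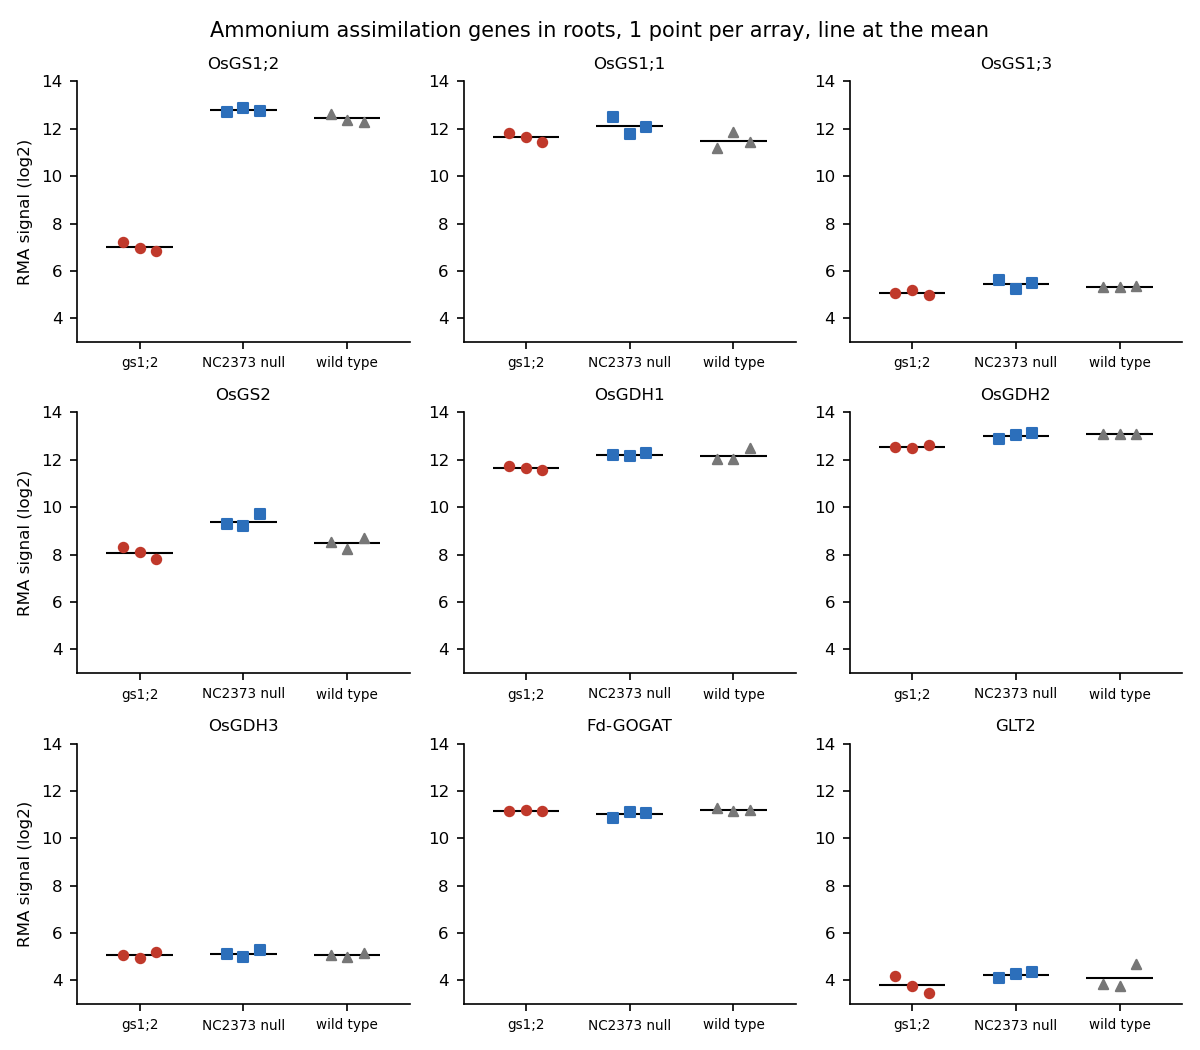
RMA signal on a log2 scale of the 9 measured ammonium assimilation genes in each array of gs1;2, NC2373 null and wild type roots, with 1 point per array and a line at the group mean. OsGS1;2 averages 7.01 in the mutant while OsGS1;1 averages 11.64 there, and the OsGS2 points of NC2373 null lie above those of the mutant.

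The remaining cytosolic isoforms were not called in the mutant. OsGS1;1, the isoform disrupted in the NC2373 line, averaged 11.64 ± 0.20 in the mutant, 12.12 ± 0.35 in NC2373 null and 11.50 ± 0.32 in wild type (SD, n = 3 each), and its difference against NC2373 null was -0.48 (SE 0.21, adjusted p = 0.165). OsGS1;3, known mainly from the spikelet, averaged 5.08 ± 0.11 in the mutant, 5.45 ± 0.19 in NC2373 null and 5.34 ± 0.04 in wild type, with -0.37 (adjusted p = 0.118) against NC2373 null. With the spread taken from the 11 arrays outside the ND8037 line, OsGS1;3 was called lower (adjusted p = 0.0484). No rise of another glutamine synthetase gene was detected, and the 3 arrays a group limit the precision of that statement. The glutamate dehydrogenase OsGDH2 had -0.46 (adjusted p = 0.066), with 2 dimmer probe sets at -1.13 (adjusted p = 0.0851) and -0.75 (adjusted p = 0.0786). It was called lower against the mean of both controls, at -0.50 (adjusted p = 0.0268), and against NC2373 null under 3 of 7 alternatives that kept all arrays compared (adjusted p 0.0227 to 0.0754). Its dimmest probe set was called against wild type, at -1.49 (adjusted p = 0.0496). OsGDH3 had -0.03 (adjusted p = 0.916) against NC2373 null, while the ferredoxin-dependent Fd-GOGAT had 0.14 (adjusted p = 0.321) and the NADH-dependent GLT2 -0.43 (adjusted p = 0.374).

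None of the 8 measured ammonium transporter genes was called by limma against NC2373 null, and 1 had an unadjusted p under 0.05. The main root uptake transporter OsAMT1;1 measured 10.13, 9.98 and 9.93 in mutant roots, against 10.03, 10.01 and 10.25 in NC2373 null and 9.55, 9.46 and 9.89 in wild type. Mutant and NC2373 null arrays overlapped for it, and the difference was -0.08 (SE 0.12, adjusted p = 0.711). OsAMT1;2 had the largest difference of the family, -0.65 (adjusted p = 0.13), and OsAMT2;1, OsAMT2;2, OsAMT2;3, OsAMT3;1, OsAMT3;2 and OsAMT3;3 lay between -0.09 and 0.26. Against wild type OsAMT2;3 was called at -0.89 (adjusted p = 0.0252), a call that ended without array 354, 355, 356, 627 or 628 (adjusted p up to 0.104).

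Of 8 nitrate uptake and reduction genes 2 rose and 1 fell in the mutant, in plants fed ammonium (37.5%, median 0.14). OsNLP1, a regulator of nitrate responses, measured 9.48, 9.87 and 9.82 in mutant roots, against 9.10, 8.90 and 8.88 in NC2373 null and 8.78, 8.91 and 8.95 in wild type. Its mutant arrays stood above every array of both controls, with differences of 0.76 (SE 0.11, adjusted p = 0.00116) against NC2373 null and 0.84 (SE 0.11, adjusted p = 9.62e-04) against wild type. OsNRT2.3, a high-affinity nitrate transporter, rose against NC2373 null by 0.58 (adjusted p = 0.0373), and NIGT1, a nitrate-induced repressor, fell, at -1.08 (SE 0.23, adjusted p = 0.0105). OsNRT2.3 lost its call without array 355, 356, 153 or 154, and NIGT1 without array 356 or 152 (adjusted p from 0.0559 to 0.151). The list had 1 call without array 356.

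Of the potassium and cation transport genes, 1 was called higher against each control. OsHAK17, a member of the HAK family of potassium transporters, measured 8.96, 9.48 and 8.84 in mutant roots, against 7.65, 6.65 and 6.01 in NC2373 null and 5.46, 6.58 and 5.57 in wild type. It was above both controls in all 3 mutant arrays, by 2.32 (SE 0.51, adjusted p = 0.0114) against NC2373 null and 3.22 (SE 0.51, adjusted p = 0.00343) against wild type, and this was the largest rise among the genes named by symbol here. A second probe set of OsHAK17 gave 1.90 (adjusted p = 0.0114) and 2.58 (adjusted p = 0.00387). The call of OsHAK17 ended without array 355 (adjusted p = 0.0519). OsHAK16 also rose against NC2373 null, at 0.90 (adjusted p = 0.0135), while the vacuolar cation exchanger NCL1, the chloride cotransporter OsCCC1 and the vacuolar potassium channel OsTPK2 fell by 0.68, 0.30 and 0.33. The 34 genes of this list had 2 called higher and 3 called lower, a share of 14.7% with a median of -0.04, and it had 0 calls without array 355, 1 without array 356 and 3 without array 152. OsHAK16 lost its call without array 355 or 356, NCL1 and OsTPK2 without array 355, 356 or 152, and OsCCC1 without array 355, 356, 152 or 154 (adjusted p from 0.055 to 0.175). OsHAK5, a high-affinity potassium transporter, had a probe set at 1.19 (adjusted p = 0.038) against NC2373 null and 1.58 (adjusted p = 0.0192) against wild type, and a brighter probe set at 0.23 (adjusted p = 0.206) and 0.17 (adjusted p = 0.434). The call of OsHAK5 ended without array 355, 356, 152, 153 or 154 (adjusted p from 0.0512 to 0.16). Against wild type it ended without array 355, 356 or 627 (adjusted p up to 0.104).

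Iron genes were called in both directions. OsIRT1, the ferrous iron transporter of the root surface, measured 5.94, 6.49 and 6.66 in mutant roots, against 4.50, 5.23 and 5.28 in NC2373 null and 5.22, 5.24 and 4.82 in wild type. All mutant arrays were above all control arrays, by 1.36 (SE 0.22, adjusted p = 0.00244) against NC2373 null and 1.27 (SE 0.22, adjusted p = 0.00649) against wild type. OsNAS2, a nicotianamine synthase that makes the precursor of the iron-chelating mugineic acids, measured 6.84, 8.25 and 6.07 in mutant roots, against 10.47, 9.17 and 8.93 in NC2373 null and 11.52, 11.63 and 12.04 in wild type. Its mean was lowest in the mutant, intermediate in NC2373 null and highest in wild type, with -2.47 (SE 0.62, adjusted p = 0.0206) against NC2373 null and -4.68 (SE 0.62, adjusted p = 9.41e-04) against wild type. Between the controls OsNAS2 had -2.21 (adjusted p = 0.112) and was not called. The call of OsNAS2 ended without array 354, 356 or 152 (adjusted p from 0.0513 to 0.111). Its neighbour in function OsNAS1, chosen after its values were seen, averaged 4.80 ± 1.83 in the mutant, 7.10 ± 1.20 in NC2373 null and 9.74 ± 0.45 in wild type (SD, n = 3 each) and was called against wild type at -4.94 (adjusted p = 0.00796) but not against NC2373 null at -2.30 (adjusted p = 0.12). YSL15, which takes up the iron chelate, had -0.91 (adjusted p = 0.142) against NC2373 null and -2.20 (adjusted p = 0.00536) against wild type. Between the controls OsNAS1 had -2.64 (adjusted p = 0.202) and YSL15 -1.29 (adjusted p = 0.125). A difference between the 2 mutant comparisons was thus not shown for OsNAS1, OsNAS2 or YSL15. OsNAAT1, the next enzyme of the mugineic acid pathway and also chosen after its values were seen, had -0.18 (adjusted p = 0.774) against NC2373 null. It was lower than wild type in the mutant, at -1.74 (adjusted p = 0.00758), and in NC2373 null, at -1.56 (adjusted p = 0.0316). That last call ended without array 152, 153 or 627 (adjusted p up to 0.161).

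Further iron genes were called against NC2373 null. The metal transporter OsNramp5 rose at 0.87 (adjusted p = 0.0474) and OsYSL13, of the yellow stripe-like family, rose at 1.33 (SE 0.23, adjusted p = 0.00295), whereas the vacuolar iron transporter OsVIT1 fell at -1.09 (adjusted p = 0.0161). Between the controls these 3 had -0.94 (adjusted p = 0.111), -0.87 (adjusted p = 0.0896) and 0.73 (adjusted p = 0.225), so a difference between the 2 mutant comparisons was not shown for them. OsYSL14, chosen after its values were seen, fell at -0.87 (adjusted p = 0.00218) and was higher in NC2373 null than in wild type at 0.99 (adjusted p = 0.0061). OsNramp5 lost its call without array 355, 356, 152 or 154, and OsVIT1 without array 355, 356 or 152 (adjusted p from 0.0603 to 0.199). The iron list of 32 had 3 called higher and 4 lower against NC2373 null (21.9%, median -0.06) and 1 higher and 5 lower against wild type (median -0.02). Against NC2373 null it had 4 calls without array 355 and 3 without array 356 or 152.

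Phosphate genes that were called all rose, 3 of 19 (15.8%, median 0.06). OsPht1;4, a phosphate transporter of the root, measured 9.90, 10.03 and 9.94 in mutant roots, against 8.68, 8.94 and 8.90 in NC2373 null and 8.99, 8.58 and 9.13 in wild type, above both controls in every mutant array. Its difference was 1.12 (SE 0.17, adjusted p = 0.00132) against NC2373 null and 1.05 (SE 0.17, adjusted p = 0.00328) against wild type. OsPHR3, of the family of transcription factors that drive the phosphate starvation response, rose at 1.13 (SE 0.20, adjusted p = 0.00347) and 0.88 (SE 0.20, adjusted p = 0.0227). OsPht1;1 rose at 0.41 (adjusted p = 0.0169) against NC2373 null, while a dimmer probe set of the same gene fell at -0.93 (adjusted p = 0.0436), so its probe sets disagreed in sign. The call of OsPht1;1 ended without array 355, 356 or 152 (adjusted p from 0.0675 to 0.0798). The list had 5 calls without array 354. The OsPHR3 call against wild type ended without array 355, 356, 627 or 628 (adjusted p up to 0.103).

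Sucrose breakdown and glycolysis genes that were called mostly fell in the mutant. Of 36 genes 9 fell and 1 rose against NC2373 null (27.8%), with a median of -0.21, and 4 fell and 1 rose against wild type, with a median of -0.17. The cell wall invertase OsCIN2 measured 7.60, 6.88 and 5.96 in mutant roots, against 9.52, 8.53 and 9.37 in NC2373 null and 8.70, 8.67 and 8.74 in wild type. All 3 mutant arrays lay below all control arrays, and the differences were -2.33 (SE 0.33, adjusted p = 9.47e-04) against NC2373 null and -1.89 (SE 0.33, adjusted p = 0.00628) against wild type. OsSUS1, a sucrose synthase of sink tissue, measured 11.93, 11.49 and 11.05 in mutant roots, against 12.65, 12.47 and 12.31 in NC2373 null and 12.25, 12.52 and 11.96 in wild type, again without overlap with NC2373 null. A second probe set gave -1.23 (adjusted p = 0.00591) and -0.90 (adjusted p = 0.0489). At the first it fell at -0.98 (SE 0.18, adjusted p = 0.00407) against NC2373 null and -0.75 (SE 0.18, adjusted p = 0.0286) against wild type, and the call against wild type ended without array 355, 356, 627 or 628 (adjusted p up to 0.14). The hexokinases HXK4 (LOC4342654) and HXK2 (LOC4339420), which phosphorylate glucose, fell at -1.25 (adjusted p = 0.00624) and -0.66 (adjusted p = 0.00513) against NC2373 null, and another cell wall invertase, OsCIN4, rose at 0.77 (adjusted p = 0.00277). The list had 5 calls without array 356 and 6 without array 152 against NC2373 null and 2 calls without array 355, 356, 627 or 628 against wild type.

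Genes of the tricarboxylic acid cycle and linked steps had 2 of 21 called against NC2373 null, both lower (9.52%, median -0.18). These were the ATP-citrate lyase subunit ACLA-2 at -0.91 (adjusted p = 0.00999) and a succinyl-CoA ligase subunit, SCS-alpha, at -0.43 (adjusted p = 0.0257). ACLA-2 lost its call without array 356 or 152, and SCS-alpha without array 355, 356 or 152 (adjusted p from 0.0541 to 0.13). The isocitrate lyase OsICL, an enzyme of the glyoxylate cycle, measured 9.45, 9.90 and 9.32 in mutant roots, against 8.01, 8.85 and 8.51 in NC2373 null and 8.30, 6.80 and 8.70 in wild type. It was not called against NC2373 null alone (adjusted p = 0.149) or wild type alone, at 1.63 (adjusted p = 0.0642), but was against their mean at 1.36 (SE 0.40, adjusted p = 0.045). That call ended without any 1 of the 6 arrays (adjusted p up to 0.167). Among 15 starch genes (6.67% called, median -0.09) the disproportionating enzyme OsDPE1 fell at -0.56 (adjusted p = 0.0315). The call of OsDPE1 ended without array 355, 356, 153 or 154 (adjusted p from 0.0849 to 0.127).

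The DNA replication and cell cycle genes, which mark dividing cells of the root tip, had the largest number of calls of any list. Of 53 genes 22 were lower and 1 higher in the mutant than in NC2373 null (43.4%, median -0.36), and 14 were lower and none higher than in wild type (median -0.38). limma called none of the 53 between NC2373 null and wild type, where 2 had an unadjusted p under 0.05 upward and 5 downward, and the median was 0.00. OsRPA32, a subunit of the replication protein A that coats single-stranded DNA, measured 7.34, 7.15 and 6.56 in mutant roots, against 8.38, 8.35 and 8.20 in NC2373 null and 8.02, 8.10 and 7.69 in wild type. The mutant arrays were below all arrays of both controls, with differences of -1.29 (SE 0.17, adjusted p = 5.75e-04) against NC2373 null and -0.92 (SE 0.17, adjusted p = 0.00821) against wild type. OsMCM4, of the helicase that unwinds replication origins, averaged 6.34 ± 0.47 in the mutant, 7.38 ± 0.09 in NC2373 null and 7.27 ± 0.17 in wild type (SD, n = 3 each), a difference of -1.04 (SE 0.18, adjusted p = 0.00347) and -0.94 (SE 0.18, adjusted p = 0.0112).

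The rest of the same helicase complex, chosen after its values were seen, stood lower too. OsMCM7 fell at -1.00 (adjusted p = 0.00292) against NC2373 null and -0.98 (adjusted p = 0.0055) against wild type, and OsMCM6 at -0.99 (adjusted p = 0.0067) and -0.89 (adjusted p = 0.0211). OsMCM2, OsMCM3 and OsMCM5 fell against NC2373 null at -0.73 (adjusted p = 0.0128), -0.78 (adjusted p = 0.022) and -0.83 (adjusted p = 0.0137). Against wild type they had -0.84 (adjusted p = 0.0122), -0.71 (adjusted p = 0.0558) and -0.82 (adjusted p = 0.0259), so OsMCM3 was not called there. Whether the wild type calls of OsMCM2 and OsMCM5 held with arrays left out is not given here. The sliding clamp OsPCNA fell at -0.76 (adjusted p = 0.00571) and -0.65 (adjusted p = 0.0231). Against NC2373 null OsMCM2 lost its call without array 356 or 152, OsMCM3 without array 356, 152 or 153, and OsMCM5 without array 356 (adjusted p from 0.0528 to 0.113).

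The same list holds genes of mitosis, and those named by their difference are given here. The kinase CDKB2-1, active from the end of S phase into mitosis, measured 8.27, 8.09 and 7.63 in mutant roots, against 9.24, 9.08 and 8.86 in NC2373 null and 8.85, 9.13 and 8.64 in wild type, without overlap between the mutant and NC2373 null. It fell at -1.06 (SE 0.17, adjusted p = 0.00237) against NC2373 null and -0.88 (SE 0.17, adjusted p = 0.0124) against wild type. The B-type cyclin CYCB2-2 fell at -1.11 (adjusted p = 0.0054) and -0.95 (adjusted p = 0.0216), and OsRPA70b, another subunit of replication protein A, at -1.18 (adjusted p = 0.00705) and -1.09 (adjusted p = 0.0192). In whole roots, fewer dividing cells and less of these transcripts per cell cannot be told apart. The list had 10 calls without array 356 and 13 without array 152 against NC2373 null, and 9 calls without array 355, 4 without array 356 or 628 and 5 without array 627 against wild type. Against wild type the named calls ended for OsMCM6 and OsRPA70b without array 356, 627 or 628 (adjusted p up to 0.0953), OsPCNA and CYCB2-2 without array 355, 356, 627 or 628 (adjusted p up to 0.13) and CDKB2-1 without array 356 or 628 (adjusted p up to 0.0731).

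**Figure D2:**
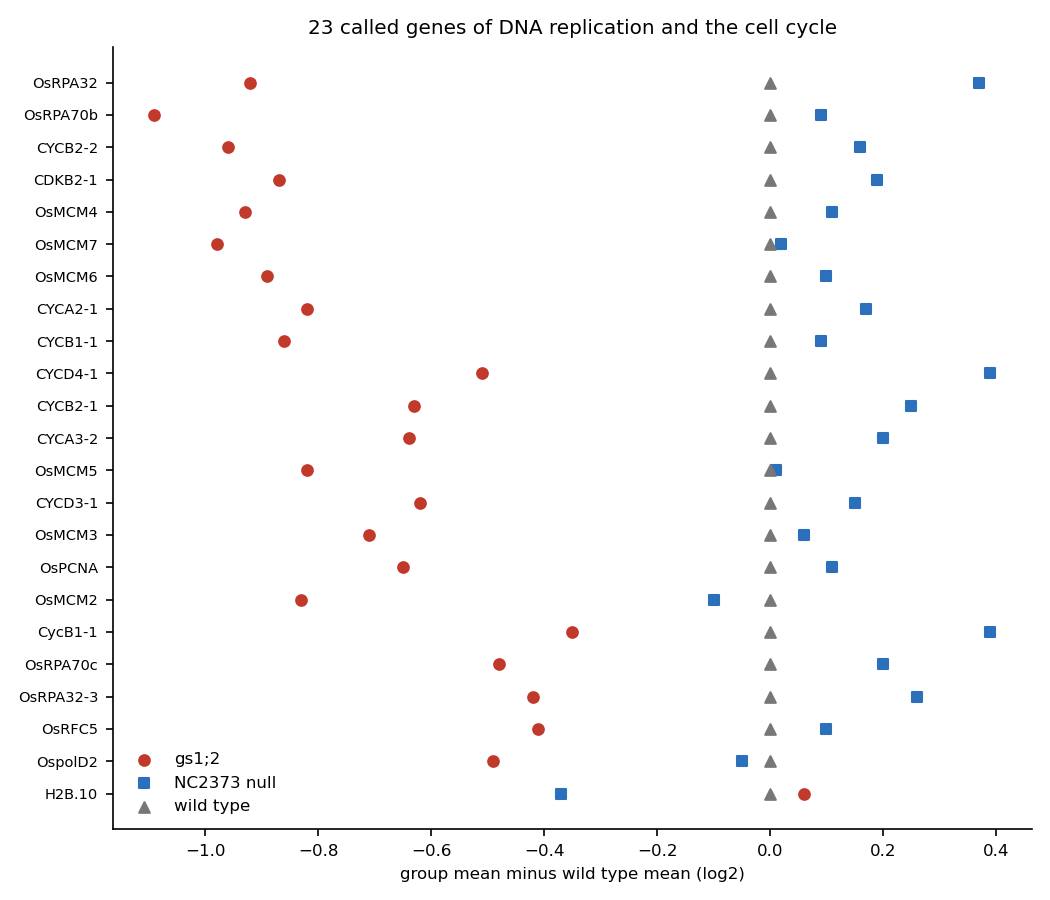
Group means of the 23 DNA replication and cell cycle genes called between gs1;2 and NC2373 null roots, each minus its wild type mean, on a log2 scale, with 1 marker per group and gene. For most genes the NC2373 null marker lies closer to 0, the wild type level, than the gs1;2 marker, which lies to the left, down to -1.09.

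Cytosolic ribosomal protein genes, whose output also follows growth, had 7 of 24 lower and none higher against NC2373 null (29.2%, median -0.30), and 2 lower against wild type (median -0.22). RPS10-1 fell at -0.64 (adjusted p = 0.0098), RPS26 at -0.58 (adjusted p = 0.0132), rps20 at -0.50 (adjusted p = 0.0114), RPL7A-2 at -0.47 (adjusted p = 0.0309) and RPS3A at -0.45 (adjusted p = 0.0216). The list had 3 calls without array 355, 0 without array 356 or 152 and 4 without array 154 against NC2373 null, and 0 calls without any 1 of the 6 arrays against wild type.

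Photosynthesis genes gave the largest median of the lists against NC2373 null, and their calls differed between the 2 controls. Of 13 genes 7 were lower in the mutant than in NC2373 null and none higher (53.8%, median -1.29). Against wild type limma called none, with 3 at an unadjusted p under 0.05, all lower, and a median of -0.30. NC2373 null was called higher than wild type at 3 of the 13 (median 1.04). For the rest of the list a difference between the 2 mutant comparisons was not shown. The small Rubisco subunit probe set of RBCS-C measured 7.82, 7.80 and 7.52 in mutant roots, against 10.19, 10.15 and 10.77 in NC2373 null and 8.41, 8.07 and 8.84 in wild type. NC2373 null stood above all mutant arrays, and the wild type arrays lay between. The differences were -2.66 (SE 0.40, adjusted p = 0.00135) against NC2373 null, -0.72 (adjusted p = 0.342) against wild type and 1.93 (adjusted p = 0.034) between the controls. The other 3 probe sets of this gene were not called. The list had 1 call without array 152, 0 without array 153, 154, 627 or 628 and 8 without array 629 between the controls.

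The light-harvesting genes had the same order of group means. RCABP89 measured 8.20, 7.61 and 7.85 in mutant roots, against 9.91, 10.35 and 10.65 in NC2373 null and 7.88, 7.72 and 9.59 in wild type. NC2373 null was again above all mutant arrays, while wild type overlapped the mutant and its array 629 lay near NC2373 null. RCABP89 fell at -2.41 (SE 0.41, adjusted p = 0.00288) against NC2373 null, RCABP69 at -2.72 (adjusted p = 0.00572) and CAB2R, at its brighter probe set, at -2.05 (adjusted p = 0.00399). Against wild type they had -0.51 (adjusted p = 0.545), -0.45 (adjusted p = 0.699) and -0.83 (adjusted p = 0.231). Between the controls RCABP69 had 2.27 (adjusted p = 0.0573) and CAB2R 1.22 (adjusted p = 0.14). A difference between the 2 mutant comparisons was thus not shown for RCABP69 and CAB2R. RCAA1, the activase that frees Rubisco of inhibitors, was lower in the mutant at all 4 of its probe sets, at -2.95 (adjusted p = 0.0021) for its dimmest one, which was also called against wild type at -1.84 (adjusted p = 0.0435). That call ended without array 355, 356, 627, 628 or 629 (adjusted p up to 0.212).

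Chlorophyll synthesis genes had 9 of 19 lower and none higher (47.4%, median -0.52), and none was called against wild type by limma, where an unadjusted p under 0.05 was reached by 2 higher and 4 lower genes. CHLH, a subunit of the chelatase that inserts magnesium, measured 6.77, 5.79 and 6.70 in mutant roots, against 8.42, 8.85 and 9.05 in NC2373 null and 6.59, 6.69 and 7.95 in wild type, with NC2373 null above all mutant arrays. It fell at -2.35 (SE 0.35, adjusted p = 0.00128), and its other probe set at -0.70 (adjusted p = 0.0454). CHLP, which reduces the phytol tail, fell at -2.31 (adjusted p = 0.00297), OsGLK1, a transcription factor of chloroplast development, at -1.82 (adjusted p = 0.0185), PORB, a light-dependent reductase of the pathway, at -1.57 (adjusted p = 0.0169), and GluTR, the first enzyme committed to the pathway, at -0.59 (adjusted p = 0.02). Between the controls CHLP had 1.73 (adjusted p = 0.0532), OsGLK1 1.61 (adjusted p = 0.109), PORB 1.25 (adjusted p = 0.138) and GluTR 0.05 (adjusted p = 0.942). A difference between the 2 mutant comparisons was thus not shown for CHLP, OsGLK1, PORB and GluTR. OsGLK1 lost its call without array 355 or 154, PORB without array 355, 356 or 154, and GluTR without array 354, 355, 356, 152 or 154 (adjusted p from 0.0504 to 0.0873). CAO, which makes chlorophyll b and was chosen after its values were seen, fell at -0.58 (adjusted p = 0.0317) and was higher in NC2373 null than in wild type at 1.08 (adjusted p = 0.00683). The call of CAO ended without any 1 of the 6 arrays (adjusted p from 0.0633 to 0.0956). The list had 3 calls without array 355, 4 without array 356 or 154 and 5 without array 152.

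Both lists are also markers of green shoot tissue, which root samples can carry. The mean signal of the 13 photosynthesis genes was 7.92, 7.48 and 7.67 in mutant arrays, against 8.75, 9.19 and 9.49 in NC2373 null and 7.80, 7.59 and 8.78 in wild type. The mean of the 19 chlorophyll genes was 7.50, 7.22 and 7.41 in mutant arrays, against 8.04, 8.19 and 8.22 in NC2373 null and 7.41, 7.54 and 7.90 in wild type. NC2373 null was the high group for both, the wild type array 629 was the high array of its group, and the part of green tissue in the differences was not tested.

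**Figure D3:**
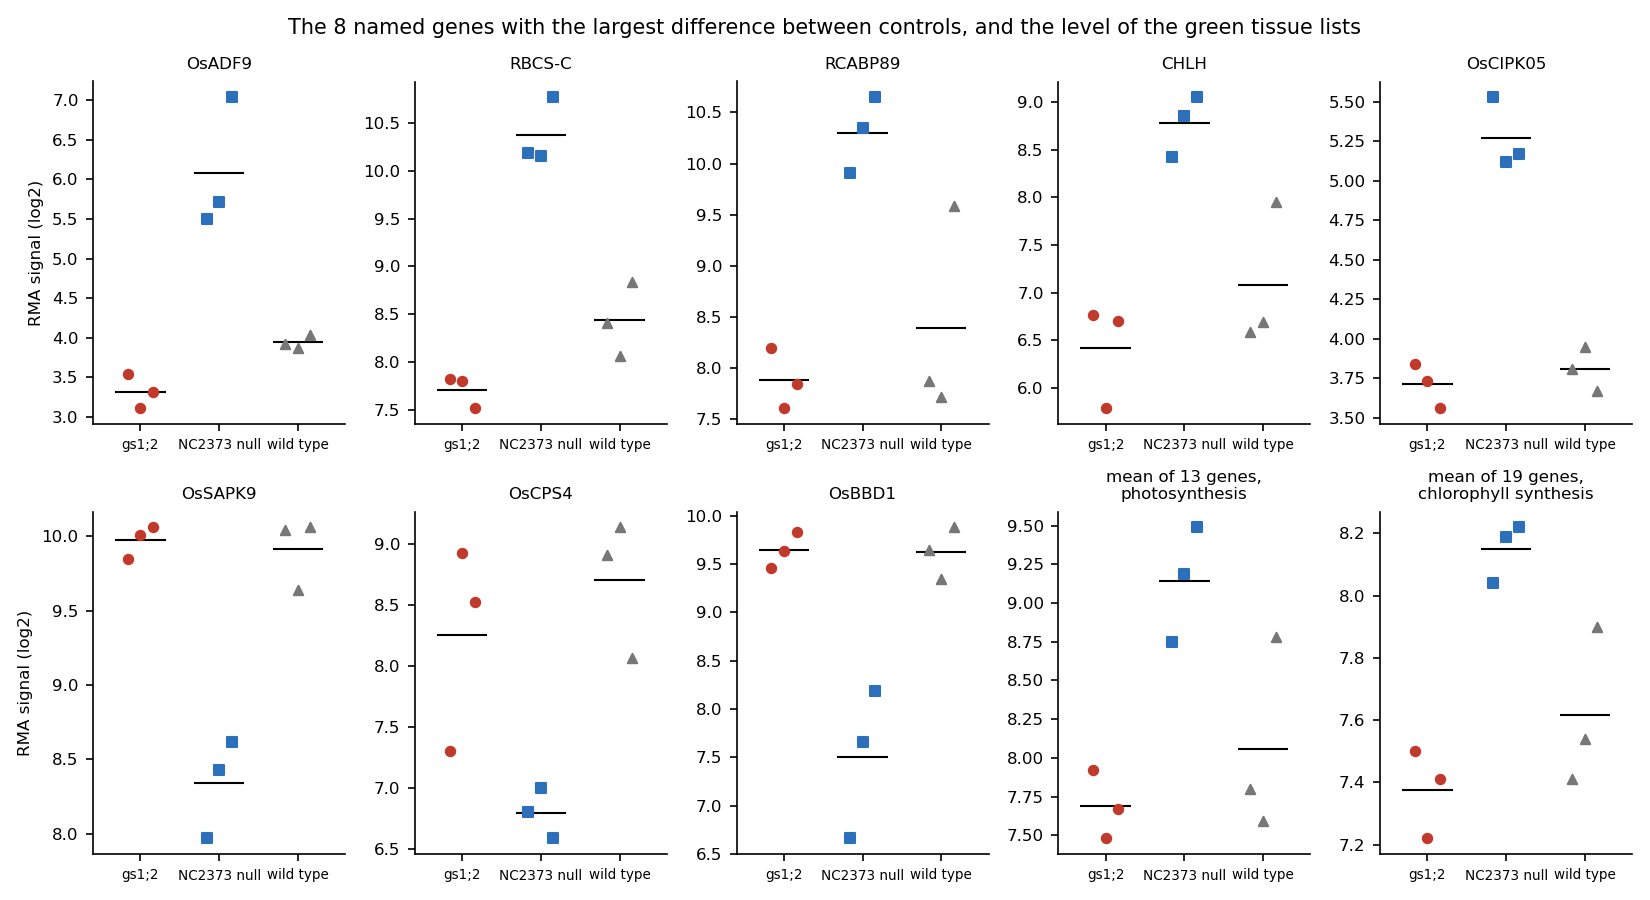
RMA signal on a log2 scale in each array of gs1;2, NC2373 null and wild type roots for the 8 named genes with the largest called difference between the controls, and the mean level of the 13 photosynthesis and 19 chlorophyll synthesis genes, with a line at each group mean. In each panel the group means of gs1;2 and wild type lie on the same side of NC2373 null, which the choice of these genes largely fixes, and the green tissue lists are highest in NC2373 null.

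Secondary wall cellulose synthases, which mark xylem and fibres, were also highest in NC2373 null. OsCesA7 measured 10.44, 9.93 and 9.77 in mutant roots, against 10.85, 10.96 and 10.90 in NC2373 null and 10.13, 10.26 and 9.84 in wild type. NC2373 null exceeded all arrays of the other groups, with a difference of -0.86 (SE 0.14, adjusted p = 0.00256) for the mutant and 0.83 (SE 0.14, adjusted p = 0.0136) between the controls. OsCesA4 and OsCesA9, which work in the same complex, fell against NC2373 null at -0.89 (adjusted p = 0.00454) and -0.99 (adjusted p = 0.00572), had -0.14 (adjusted p = 0.701) and 0.03 (adjusted p = 0.959) against wild type, and were higher in NC2373 null than in wild type at 0.75 (adjusted p = 0.0465) and 1.02 (adjusted p = 0.0225). BC1, a protein that orders cellulose, fell at -1.02 (adjusted p = 0.0211). The call of BC1 ended without array 355, 356 or 152 (adjusted p from 0.0589 to 0.112). The control calls ended for OsCesA4 without array 152, 153, 154, 627 or 629 (adjusted p up to 0.158), OsCesA7 without array 627 (adjusted p up to 0.0589) and OsCesA9 without array 152 or 153 (adjusted p up to 0.0757). Of the 11 secondary wall genes 4 fell (36.4%, median -0.25) and 3 were higher in NC2373 null than in wild type, with 1 call without array 152, 153 or 627. Against wild type limma called none for the mutant, with 3 lower at an unadjusted p under 0.05.

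Cell wall loosening genes, the expansins and xyloglucan endotransglucosylases of growing cells, had 7 of 30 lower and none higher (23.3%, median -0.43), and 1 lower against wild type (median -0.21). OsEXPB7 measured 10.02, 8.64 and 9.51 in mutant roots, against 11.33, 11.36 and 10.51 in NC2373 null and 9.96, 10.16 and 9.58 in wild type, with all mutant arrays below NC2373 null. It fell at -1.68 (SE 0.30, adjusted p = 0.00367) and had -0.51 (adjusted p = 0.378) against wild type. OsEXPA1, OsEXPB11, OsEXPB3 and OsEXPB4 fell at -1.93 (adjusted p = 0.0262), -1.74 (adjusted p = 0.0406), -1.08 (adjusted p = 0.0419) and -0.77 (adjusted p = 0.0248), and OsEXPB3 was the 1 called against wild type, at -1.29 (adjusted p = 0.0342), a call that ended without array 355, 356, 627 or 628 (adjusted p up to 0.168). OsEXPA1 and OsEXPB3 lost their calls without array 355, 356, 152 or 154, OsEXPB11 without array 354, 355, 356, 152 or 154, and OsEXPB4 without array 355, 356 or 152 (adjusted p from 0.062 to 0.187). The list had 2 calls without array 355, 356 or 152 and 3 without array 154. OsXXT1, a xylosyltransferase needed for root hairs and 1 of 2 measured root hair genes, fell at -0.72 (adjusted p = 0.00359), while its other probe set had -0.34 and was not called, and the pair had 2 calls without array 153.

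Of the lignin genes 1 of 30 was higher and 2 were lower (10%, median -0.14), beside 10.2% of all probe sets, dim ones included. The exception in size was the laccase LAC24, of the enzymes that couple lignin monomers, which measured 11.25, 11.56 and 11.57 in mutant roots, against 9.32, 9.90 and 9.79 in NC2373 null and 9.62, 8.92 and 9.45 in wild type. It was above both controls in every mutant array, by 1.79 (SE 0.21, adjusted p = 2.61e-04) against NC2373 null and 2.13 (SE 0.21, adjusted p = 6.57e-05) against wild type. The laccases LAC10 and LAC4 fell at -1.49 (adjusted p = 0.0329) and -1.05 (adjusted p = 0.0384). The calls of LAC10 and LAC4 ended without array 355, 356, 152, 153 or 154 (adjusted p from 0.0558 to 0.187). ROMT-17, of the O-methyltransferase family, had -1.94 (adjusted p = 0.0269) against NC2373 null, and of its other 3 probe sets 1 was called, at -1.54 (adjusted p = 0.00301). The call of ROMT-17 ended without array 355, 356, 153 or 154 (adjusted p from 0.0541 to 0.12). The lignin list had 1 call without array 356, 152, 153 or 154. Among 27 genes of the casparian strip and suberin, which mark the endodermis, 1 rose and 2 fell (11.1%, median 0.09). OsCASPL1U2 rose at 0.86 (adjusted p = 0.00809) and 0.93 (adjusted p = 0.0098), OsCASPL5B3 fell at -0.77 (adjusted p = 0.00484) and OsCASPL3A1 at -0.63 (adjusted p = 0.0114). The call of OsCASPL3A1 ended without array 356 or 152 (adjusted p from 0.0612 to 0.0704). The OsCASPL1U2 call against wild type ended without array 356 (adjusted p = 0.0598).

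Cytokinin genes moved in both directions. Of 32, 4 rose and 5 fell (28.1%, median 0.10). LOG and LOGL5, which release active cytokinin, rose at 0.71 (adjusted p = 0.00805) and 0.73 (adjusted p = 0.0252), whereas the cytokinin oxidase OsCKX3, the phosphotransfer protein OsHpt5 and the response regulator OsRR4 fell at -0.62 (adjusted p = 0.037), -0.68 (adjusted p = 0.0134) and -0.81 (adjusted p = 0.0406). LOG lost its call without array 356, LOGL5 without array 355, 356 or 152, OsCKX3 without any 1 of the 6 arrays, OsHpt5 without array 356 or 152, and OsRR4 without array 354, 355, 356, 152 or 153 (adjusted p from 0.0516 to 0.153). Against wild type 1 of the 32 was called. The list had 5 calls without array 355, 1 without array 356 and 2 without array 152 against NC2373 null.

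Of 72 auxin and strigolactone genes 3 rose and 9 fell (16.7%, median -0.08). OsTAR2, of the family that makes the auxin precursor from tryptophan, fell at -0.77 (adjusted p = 0.0128) against NC2373 null and -0.76 (adjusted p = 0.0237) against wild type, and the auxin response repressor IAA7 at -0.86 (adjusted p = 0.0273) and -0.98 (adjusted p = 0.0258). IAA30 and IAA1 (LOC4334069), of the same repressor family, fell at -0.84 (adjusted p = 0.0147) and -0.64 (adjusted p = 0.0436) against NC2373 null, and the auxin efflux carrier OsPIN3a rose at 0.76 (adjusted p = 0.0213). OsTAR2 lost its call without array 356, IAA7 without array 355, 356, 152 or 153, IAA30 without array 356 or 152, IAA1 (LOC4334069) without array 355, 356, 152 or 154, and OsPIN3a without array 355, 356 or 152 (adjusted p from 0.0562 to 0.194). Against wild type the OsTAR2 and IAA7 calls ended without array 355, 356, 627 or 628 (adjusted p up to 0.142). The list had 3 calls without array 355, 2 without array 356, 1 without array 152 and 7 without array 154 against NC2373 null.

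For jasmonate the calls also differed between the 2 controls. Against NC2373 null 3 of 38 rose and none fell (7.89%, median 0.08), beside 10.2% of all probe sets called. Against wild type 1 rose and 5 fell (median 0.00), and 4 were called lower in NC2373 null than in wild type. Beyond these 4 a difference between the 2 mutant comparisons was not shown. OsOPR4, of the oxophytodienoate reductase family, measured 10.96, 10.95 and 10.75 in mutant roots, against 9.73, 9.86 and 10.10 in NC2373 null and 10.11, 10.04 and 10.20 in wild type. Every mutant array was above every control array, at 0.99 (SE 0.13, adjusted p = 5.71e-04) against NC2373 null and 0.77 (SE 0.13, adjusted p = 0.00482) against wild type. OsOPR5 rose at 0.66 (adjusted p = 0.0101) against NC2373 null. The repressor OsTIFY10c rose at 0.76 (adjusted p = 0.0136) against NC2373 null and had -0.17 (adjusted p = 0.663) against wild type. OsOPR5 lost its call without array 355 or 152, and OsTIFY10c without array 355, 356 or 152 (adjusted p from 0.0508 to 0.0716). A pair of jasmonate-induced repressors chosen after their values were seen ran the other way. OsTIFY11a averaged 6.12 ± 0.37 in the mutant, 6.91 ± 0.99 in NC2373 null and 9.45 ± 1.35 in wild type and OsTIFY11e 6.80 ± 0.46 in the mutant, 7.78 ± 1.13 in NC2373 null and 10.22 ± 1.24 in wild type (SD, n = 3 each). Against NC2373 null they had -0.79 (adjusted p = 0.415) and -0.98 (adjusted p = 0.28), and against wild type they fell at -3.33 (adjusted p = 0.00482) and -3.42 (adjusted p = 0.00342). NC2373 null was lower than wild type at -2.54 (adjusted p = 0.0469) and -2.44 (adjusted p = 0.0493), calls that ended without array 152, 153, 627 or 628 (adjusted p up to 0.247). The jasmonate list had 1 call without array 355 or 152 and 5 without array 154 against NC2373 null, 3 calls without array 356 against wild type and 0 calls without array 152, 153 or 627, 8 without array 154 and 1 without array 628 between the controls.

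All 17 measured genes of the diterpenoid phytoalexins, antimicrobial compounds of rice, had a difference above 0 against NC2373 null, with a median of 0.84, but only 2 were called (11.8%). Over all probe sets 32364 of 57258 had a difference above 0, and 10.2% were called. The list mean was 5.53, 6.38 and 6.24 in mutant arrays, against 5.24, 5.42 and 5.20 in NC2373 null and 5.61, 5.90 and 5.63 in wild type. Mutant array 354 thus lay below all wild type arrays. OsCPS4, which makes a cyclic precursor of the momilactones, had 1.46 (adjusted p = 0.0346) and OsMAS, a late momilactone enzyme, 1.24 (adjusted p = 0.0389). The calls of OsCPS4 and OsMAS ended without array 355, 356, 152, 153 or 154 (adjusted p from 0.0523 to 0.148). Against wild type limma called none, with an unadjusted p under 0.05 for 1 higher and 1 lower gene, and the median was 0.19. The list had 0 calls without array 355, 356, 152, 153 or 154.

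Among the stress lists, the small heat shock protein OsHsp18.6 and the transcription factor OsWRKY62 rose against both controls. Of 52 heat shock genes 4 rose and 5 fell against NC2373 null (17.3%, median 0.05), and 5 rose and none fell against wild type (median 0.08). OsHsp18.6 measured 7.40, 6.93 and 6.98 in mutant roots, against 5.44, 5.37 and 5.18 in NC2373 null and 5.07, 5.20 and 5.03 in wild type. Every mutant array exceeded every control array, by 1.78 (SE 0.13, adjusted p = 4.26e-06) against NC2373 null and 2.01 (SE 0.13, adjusted p = 8.40e-07) against wild type. Of its other probe sets 1 rose at 0.73 (adjusted p = 0.00311) and 1 had 0.11 (adjusted p = 0.719). The heat stress factor HSFA4D rose at 0.97 (adjusted p = 0.00519). HSFC1B rose at 1.14 (adjusted p = 0.00218), and for it NC2373 null was below wild type at -1.03 (adjusted p = 0.0173), a call that ended without array 152 or 627 (adjusted p up to 0.0859). HSFB4B and HSP17.7 fell at -0.88 (adjusted p = 0.0187) and -0.53 (adjusted p = 0.0202). The calls of HSFB4B and HSP17.7 ended without array 355, 356, 152 or 154 (adjusted p from 0.0501 to 0.0997). The list had 3 calls without array 355, 356 or 152 against NC2373 null and 3 calls without array 354 or 629, 1 without array 355 or 356 and 2 without array 627 or 628 against wild type.

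Among 26 pathogenesis related and WRKY genes 3 rose and 1 fell (15.4%, median 0.04). OsWRKY62, a transcription factor known as a repressor of rice defence, measured 10.61, 11.24 and 10.60 in mutant roots, against 8.94, 9.15 and 8.60 in NC2373 null and 8.74, 8.76 and 8.34 in wild type. It was higher in the mutant than in both controls, by 1.93 (SE 0.36, adjusted p = 0.00454) against NC2373 null and with an adjusted p of 0.0037 against wild type. Its close relative OsWRKY76 measured 9.76, 10.34 and 9.85 in mutant roots, against 8.57, 7.35 and 7.54 in NC2373 null and 9.37, 9.18 and 7.00 in wild type. It varied more between replicates, and had 2.17 (SE 0.62, adjusted p = 0.039) against NC2373 null and 1.47 (adjusted p = 0.209) against wild type. OsNPR3, of the family of salicylate receptors, rose at 0.59 (adjusted p = 0.048) and OsNPR5 fell at -1.05 (adjusted p = 0.0184). OsWRKY76 and OsNPR3 lost their calls without any 1 of the 6 arrays, and OsNPR5 without array 355, 356 or 152 (adjusted p from 0.0505 to 0.164). The list had 1 call without array 355 or 356 and 2 without array 152, 153 or 154.

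Of 38 cold and drought genes 1 rose and 2 fell against NC2373 null (7.89%, median -0.02), and 1 rose and 5 fell against wild type. OsTPP1, a trehalose-6-phosphate phosphatase, measured 8.95, 9.51 and 9.15 in mutant roots, against 9.94, 10.50 and 11.07 in NC2373 null and 12.16, 11.74 and 10.77 in wild type. It was lowest in the mutant, with -1.30 (SE 0.38, adjusted p = 0.0434) against NC2373 null and -2.35 (SE 0.38, adjusted p = 0.00399) against wild type. LTI6A, a small membrane protein induced by cold, fell at -0.66 (adjusted p = 0.0266). OsTPP1 lost its call without array 354, 355, 356, 153 or 154, and LTI6A without array 355, 356, 152 or 154 (adjusted p from 0.0634 to 0.154). The list had 1 call without array 356 or 154 against NC2373 null and 2 calls without array 356 and 3 without array 627 against wild type. Of 6 low oxygen genes (16.7% called, median -0.56) the haemoglobin NSHB1 fell at -1.24 (adjusted p = 0.0256), and of 26 glutathione and peroxidase genes 1 rose and 3 fell (15.4%, median -0.05). These were the catalase CAT-B at 0.30 (adjusted p = 0.0264), the peroxidase genes LOC4339222 at -1.94 (adjusted p = 0.0138) and PRX112 at -1.01 (adjusted p = 0.0154), and the peroxiredoxin PRXIIE-1 at -0.29 (adjusted p = 0.0496). NSHB1 and PRX112 lost their calls without array 355, 356 or 152, CAT-B without array 355, 356, 152 or 154, peroxidase (LOC4339222) without array 356 or 152, and PRXIIE-1 without any 1 of the 6 arrays (adjusted p from 0.0574 to 0.162). The peroxidase list had 1 call without array 355, 0 without array 356 or 152 and 2 without array 154, and the low oxygen list 0 calls without array 355, 356 or 152 and 2 without array 154.

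**Figure D4:**
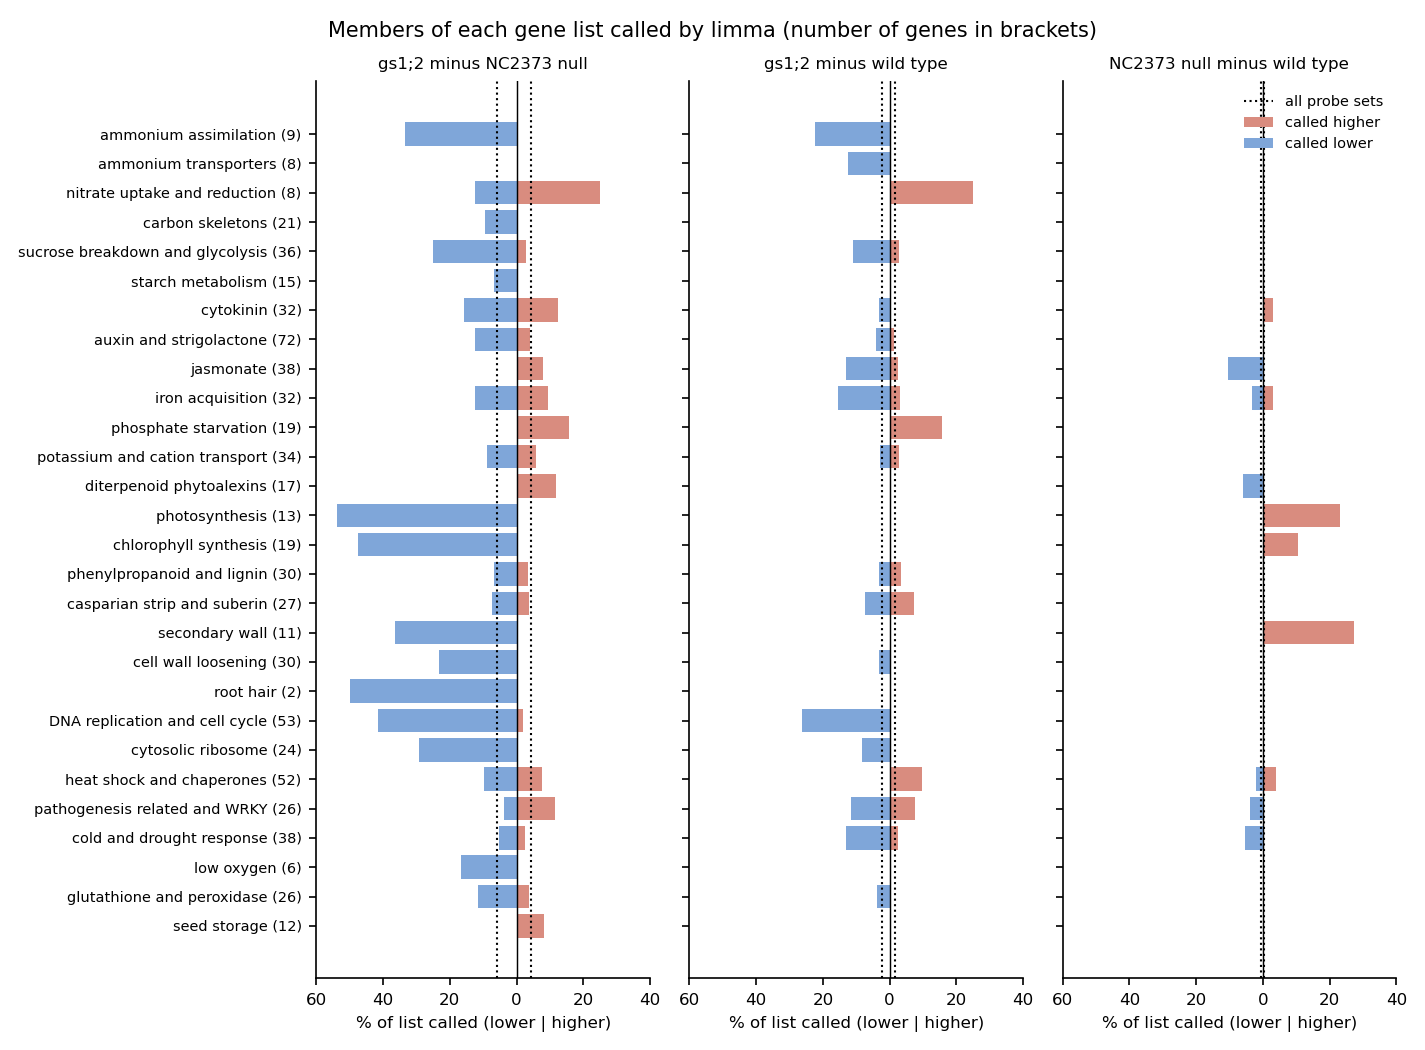
Share of each gene list called lower (left of 0) and higher (right of 0) for gs1;2 minus NC2373 null, gs1;2 minus wild type and NC2373 null minus wild type, in percent, with the share over all probe sets as dotted lines. Photosynthesis, chlorophyll synthesis, DNA replication and the 2 root hair genes reach furthest to the left in the first panel, and of these DNA replication alone has calls in the second.

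Outside the lists, further named genes had large rises against both controls. The beta-glucosidase BGLU22 measured 9.91, 10.59 and 10.35 in mutant roots, against 8.14, 8.96 and 8.71 in NC2373 null and 9.09, 8.50 and 8.91 in wild type, without overlap with either control, at 1.68 (SE 0.22, adjusted p = 5.57e-04) and 1.45 (SE 0.22, adjusted p = 0.00259). The histone deacetylase OsHDAC3 rose at 1.42 (adjusted p = 3.05e-05) and 1.17 (adjusted p = 2.01e-04), RH2 at 1.35 (adjusted p = 0.0146) and 1.95 (adjusted p = 0.0037), and OsGER3, of the germin-like proteins, at 1.33 (adjusted p = 0.00574) and 1.13 (adjusted p = 0.024). The call of RH2 ended without array 355 or 154 (adjusted p from 0.0543 to 0.0595). The OsGER3 call against wild type ended without array 354, 356, 627, 628 or 629 (adjusted p up to 0.11).

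Besides OsADF9, given below, the largest falls outside the lists were called against NC2373 null and not against wild type. The beta-glucanase OsGLU6 fell at -2.93 (adjusted p = 0.005), the aquaporin OsPIP2;5 at -2.12 (adjusted p = 0.00147), the beta-glucosidase BGLU30 at -2.55 (adjusted p = 0.0301) and OsBURP02, of the BURP domain proteins, at -2.38 (adjusted p = 0.018). Against wild type they had -0.98 (adjusted p = 0.356), -1.00 (adjusted p = 0.0977), -0.72 (adjusted p = 0.626) and -1.41 (adjusted p = 0.191), none of them called. Between the controls they had 1.95 (adjusted p = 0.115), 1.12 (adjusted p = 0.122), 1.83 (adjusted p = 0.257) and 0.97 (adjusted p = 0.534). A difference between the 2 mutant comparisons was thus not shown for them. BGLU30 lost its call without array 355, 356, 152, 153 or 154, and OsBURP02 without array 355, 356 or 153 (adjusted p from 0.0528 to 0.127).

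**Figure D5:**
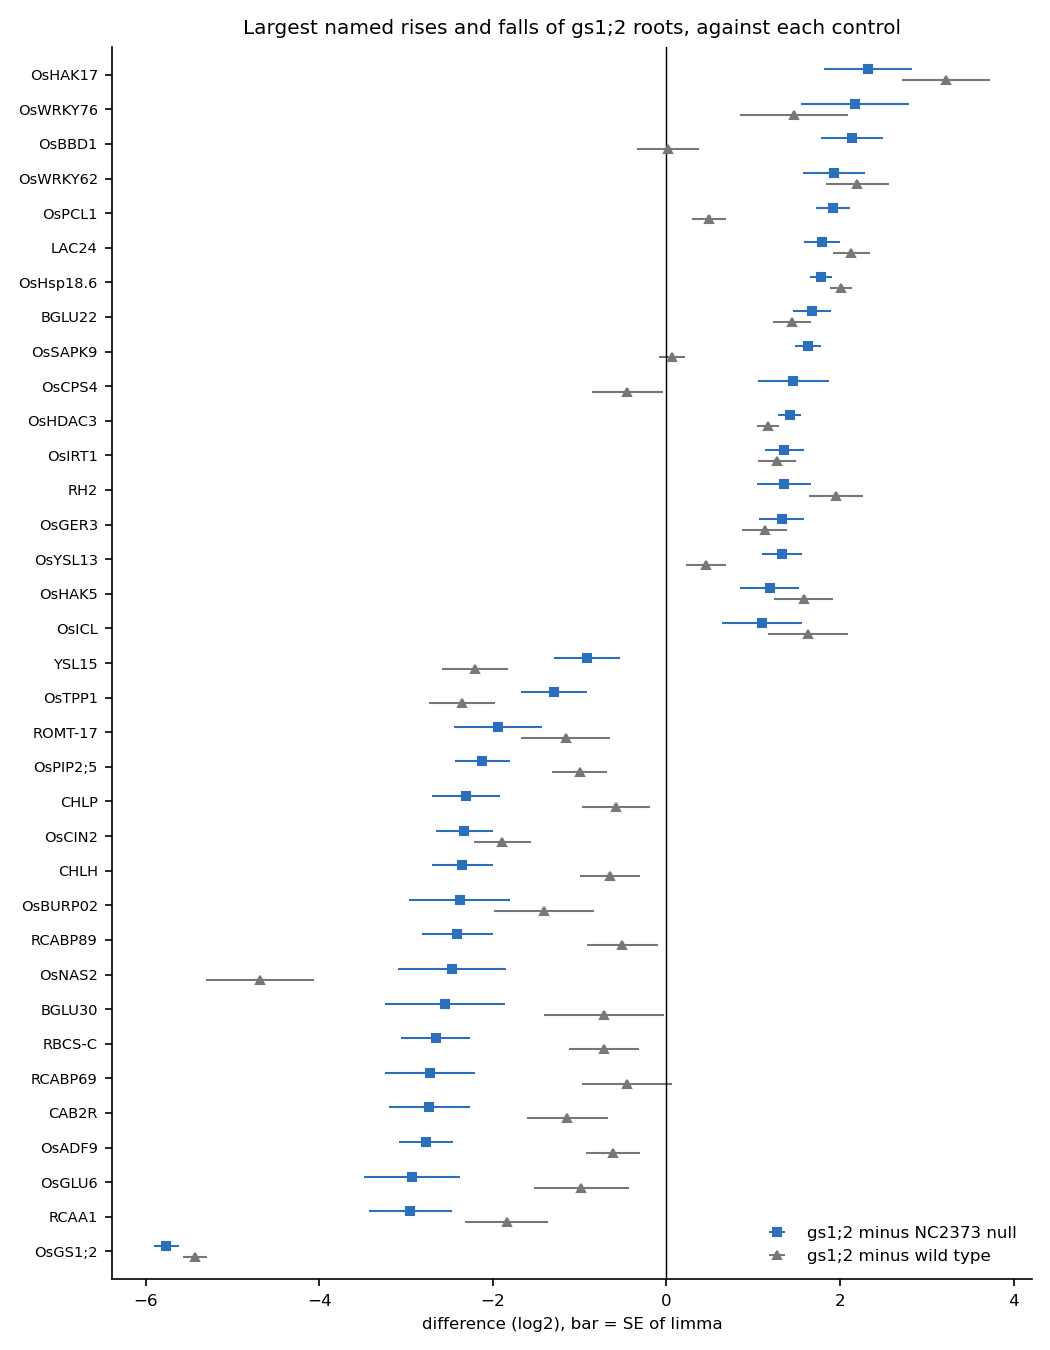
Differences on a log2 scale of the named genes with the largest rises and falls, gs1;2 minus NC2373 null (squares) and gs1;2 minus wild type (triangles), with the SE from limma as bars. OsGS1;2 stands apart at -5.76 and -5.43, OsHAK17 has the largest rise of those plotted against each control, and many falls are larger against NC2373 null.

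A gene with no name beyond its locus identifier, LOC4331398, had the largest rise on the array and was chosen after its values were seen. One of its probe sets measured 11.23, 11.39 and 11.52 in mutant roots, against 5.16, 3.04 and 3.06 in NC2373 null and 2.96, 3.08 and 3.05 in wild type, and the other 11.37, 11.63 and 11.68 in mutant roots, against 5.54, 3.33 and 3.49 in NC2373 null and 3.32, 3.67 and 3.44 in wild type. Every mutant array stood far above every other array, and NC2373 null array 152 was higher than the others of its group at both probe sets. The differences against NC2373 null were 7.63 (SE 0.42, adjusted p = 1.57e-07) and 7.44 (SE 0.42, adjusted p = 1.57e-07), and both held with each of the 9 mutant, NC2373 null and wild type arrays left out in turn (adjusted p up to 3.37e-06). In the 8 remaining arrays of the series, of plants with an insertion in OsGS1;1 and of no-insertion plants of ND8037, another line with a disrupted OsGS1;1, the first probe set lay between 2.50 and 3.76.

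The controls were compared directly at the 8 named genes where they differed most and where the mutant also differed from NC2373 null. The actin-depolymerising factor OsADF9 measured 3.54, 3.11 and 3.31 in mutant roots, against 5.50, 5.72 and 7.04 in NC2373 null and 3.92, 3.87 and 4.04 in wild type. NC2373 null stood above both other groups, with -2.77 (SE 0.31, adjusted p = 1.74e-04) for the mutant against NC2373 null, -0.62 (adjusted p = 0.284) against wild type and 2.15 (SE 0.31, adjusted p = 0.0061) between the controls. OsCIPK05, a calcium-regulated kinase, gave -1.56 (adjusted p = 8.12e-04) for the mutant and 1.47 (adjusted p = 0.00719) between the controls. OsSAPK9, a kinase of osmotic stress and abscisic acid signalling, measured 9.85, 10.01 and 10.06 in mutant roots, against 7.97, 8.43 and 8.62 in NC2373 null and 10.04, 9.64 and 10.06 in wild type, and here NC2373 null was the low group, with 1.63 (adjusted p = 3.10e-05) for the mutant and -1.57 (adjusted p = 3.58e-04) between the controls. OsBBD1, a bifunctional nuclease gene, likewise had 2.14 (adjusted p = 0.00293) and -2.12 (adjusted p = 0.0135). The others were OsCPS4, RBCS-C, RCABP89 and CHLH, described above. Their control differences were -1.91 (adjusted p = 0.0423), 1.93 (adjusted p = 0.034), 1.91 (adjusted p = 0.0423) and 1.70 (adjusted p = 0.0337). The control calls ended for OsBBD1 without array 152 or 627 (adjusted p up to 0.0666) and OsCPS4, RBCS-C, RCABP89 and CHLH without array 152, 153, 154, 627 or 628 (adjusted p up to 0.214). The 8 were chosen by both of these comparisons, which share the NC2373 null arrays, so where the mutant lies relative to wild type largely follows from the choice.

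Of the 128 genes and probe sets named by the fixed rule, 112 were called against NC2373 null, and 49 of these kept the call with each of the 6 arrays left out in turn. Mutant array 356 ended 59 of the 112 calls, mutant array 355 and NC2373 null array 152 ended 50 each, NC2373 null array 154 ended 30, NC2373 null array 153 ended 18 and mutant array 354 ended 10.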

How the data were processed

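Expression was measured on Affymetrix rice arrays, 1 sample an array. The deposited values are log2 signals made by the authors with RMA, per the submitters' processing notes, and the version of the software is not given in the sources used here. All 17 arrays entered limma 3.58.1 (R 4.3.3) with 1 mean per group, moderated variances with 11 residual and 3.83 prior degrees of freedom, no covariate and Benjamini-Hochberg adjustment over 57258 probe sets. 123 Affymetrix control probe sets were left out, and no filter on low signal was set. Of the probe sets, 22436 carried 1 gene (17905 genes, 2451 with a name), 95 several and 34727 none. Symbols were updated through RefSeq, and the probe set with the highest mean signal stood for a gene in a list. The members and lists were chosen with earlier results of these data known. Named genes are all measured genes of ammonium assimilation and transport, up to 5 called members of each other list with the largest difference, the 15 largest rises and falls of named genes without overlap between the mutant and NC2373 null, the 10 largest rises and falls against the mean of both controls, and the 8 largest called differences between the controls that were also called for the mutant. Up to 5 genes called in opposite directions against the controls were allowed. Genes outside this rule are marked as chosen after their values were seen. The arrays covered were varied (11 or 6), as were quantile normalization, centring, a signal filter of log2 5, array weights, the variance model, the probe set summary and each array left out. The number of arrays limits the precision. The fit was run on simulated data with independent noise for each probe set. That run does not cover shifts shared by the probe sets of an array, and no result here rests on it. Sequences and promoter motifs were not analysed here.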

Additional observations from a re-analysis of the deposited data

How the results depend on the processing

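No named gene had a called difference against NC2373 null that changed sign under the alternatives run. Counts were not scored for direction, and the larger side of a split could change. Against wild type 313 were higher and 302 lower with only the 6 arrays compared, beside 954 and 1356. Between the controls 77 were higher and 56 lower with the 11 arrays outside the ND8037 line, beside 245 and 278. Against NC2373 null, 3989 to 7719 probe sets were called under the alternatives that kept all arrays compared, beside 5849, and 1079 with a difference of at least 2-fold. With 1 array left out the counts were 1863 to 5518 against NC2373 null, 555 to 2817 against wild type, 1264 to 6037 against the mean of both controls and 118 to 1036 between the controls. The wild type arrays were left out as an alternative chosen after seeing the data. A 2-fold size gave 570 against wild type, 633 against both controls and 203 between the controls. With only the 11 arrays outside the ND8037 line, the count was 1360 against wild type and 133 between the controls, and with only the 6 arrays compared it was 615 and 20. These fits hold fewer arrays. OsGS1;3 at -0.37 passed the threshold with the 11 arrays (adjusted p = 0.0484, range over its alternatives 0.0484 to 0.338). Photosynthesis genes called lower numbered 11 with array weights, beside 7. Chlorophyll synthesis genes called lower numbered 14 with the 6 arrays, beside 9, and 3 to 8 with 1 array left out. DNA replication genes called lower numbered 10 to 23 with 1 array left out, beside 22. For single genes, 72 comparisons lost a call, 6 gained one and 911 kept their side of the threshold under alternatives that left no array out. With 1 array left out, 232 lost a call and 620 did not change side. The cause was not tested. No paired analysis was possible because the labels' replicate numbers are not shared between groups. Without detection calls or probe intensities, the signal over background is unknown, which limits what is said of dim probe sets.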

Other observations

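Values of 3 circadian clock genes, grouped after their values were seen, are given here. OsPCL1 was also among the 15 largest rises of the fixed rule, while OsCCA1 and OsPRR1 lay outside that rule. OsPCL1, an evening component of the clock, measured 10.47, 10.01 and 10.30 in mutant roots, against 8.75, 8.47 and 7.79 in NC2373 null and 9.72, 9.85 and 9.73 in wild type. It was lowest in NC2373 null, with 1.92 (SE 0.20, adjusted p = 1.02e-04) for the mutant against NC2373 null, 0.49 (adjusted p = 0.18) against wild type and -1.43 (SE 0.20, adjusted p = 0.00526) between the controls. OsCCA1, a morning component, measured 7.98, 8.09 and 8.03 in mutant roots, against 9.17, 9.42 and 9.41 in NC2373 null and 8.33, 8.36 and 8.24 in wild type and was highest in NC2373 null, with -1.30 (SE 0.0822, adjusted p = 5.77e-07), -0.27 (adjusted p = 0.0774) and 1.02 (SE 0.0822, adjusted p = 5.67e-05). A dimmer probe set of OsCCA1 had 0.31 for the mutant against NC2373 null and was not called. OsPRR1, another evening component, averaged 10.12 ± 0.08 in the mutant, 9.69 ± 0.16 in NC2373 null and 10.22 ± 0.12 in wild type (SD, n = 3 each), with 0.44 (adjusted p = 0.0133) for the mutant and -0.53 (adjusted p = 0.0226) between the controls. The call of OsPRR1 ended without array 355, 356 or 152 (adjusted p from 0.0574 to 0.0707). Between the controls it ended without array 152, 153 or 627 (adjusted p up to 0.132). The time of harvest of each group is not given in the labels used here.

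A probe set with no gene listed was high everywhere except in wild type. It measured 13.18, 13.10 and 13.09 in mutant roots, against 12.60, 12.79 and 12.61 in NC2373 null and 5.10, 5.19 and 5.13 in wild type, and 12.56 to 13.09 in the other 8 arrays of the series. The difference was 0.46 (adjusted p = 0.0156) between the mutant and NC2373 null, a call that ended without array 356, 152 or 154 (adjusted p up to 0.0691). It was 7.98 (adjusted p = 9.47e-16) between the mutant and wild type and 7.53 (SE 0.11, adjusted p = 2.26e-15) between NC2373 null and wild type. Of 57258 probe sets it was the 1 whose 14 other arrays all lay above all wild type arrays by more than 3 on the log2 scale, and 0 lay below by as much.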
